A study of Homo sapiens with 6 samples.

Results

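The genes described here are 10 genes of the circadian clock: PER1, PER2, PER3, CRY1, CRY2, NR1D1, NR1D2, CLOCK, BMAL1 (formerly ARNTL) and DBP. They were chosen by name, and all 10 are among the 20036 genes of the deposited table. The choice was made with earlier results of these data known, so counts of these genes against the background are not a blind test. The cells were KGN, an established human line from an ovarian granulosa cell tumour, with the label WT for genotype. Every group had been transfected with a small interfering RNA (siRNA) and a Lipofectamine reagent and harvested 48 hours later. The siNC libraries are the control, and siOGT1 and siOGT2 each target the mRNA of OGT, the enzyme that adds O-GlcNAc to nuclear and cytosolic proteins. Each group had 2 libraries, 6 in all. Nothing in the labels says whether the libraries of a group came from separate cultures, so the p-values measure only the spread between these libraries, which may be technical.

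The mammalian clock is a transcriptional feedback loop. CLOCK and BMAL1 bind as a pair to E-box sequences and activate the PER and CRY genes, whose proteins return to the nucleus and inhibit the pair. They also activate NR1D1 and NR1D2, nuclear receptors better known as REV-ERBα and REV-ERBβ, which repress BMAL1, and DBP, a factor that drives output genes through D-boxes. O-GlcNAc is known to be placed on several clock proteins, PER2, CLOCK and BMAL1 among them. In the ovary, granulosa cells hold a clock of this kind. These libraries give the level of each mRNA at 1 time after transfection, so no rhythm was measured, and a change of phase and a change of mean level cannot be told apart. In RNA from whole cultures, fewer cells expressing a gene and less RNA per cell cannot be told apart either.

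Levels are FPKM, fragment numbers scaled to gene length and library total, so they can be compared between genes. Library totals recovered from the values ran from 16756649 to 21416489 reads, and both siOGT2 libraries were below both siNC libraries. OGT itself stood at 22.4 and 23.4 FPKM in siNC, 13.8 and 12.9 in siOGT1, and 14.3 and 14.7 in siOGT2, or 58.3% and 63.2% of the siNC mean. Of 16 granulosa cell markers 8 reached a mean FPKM of 1, and the 16 together summed to 64.7 to 69.8 FPKM. FOXL2, NR5A1 and AMH were present, FSHR was at 0 in each library, and CYP19A1 and AMHR2 were near 0. Leukocyte markers (0 of 6 at that level, summed 0.475 to 0.889 FPKM) and theca markers (0 of 3) were at or near 0. One endothelial marker of 4, TEK, and 1 epithelial marker of 4, KRT7, passed that level. With siOGT2 KRT7 rose (0.22 on the log2 scale, adjusted p = 0.00771), and the epithelial markers summed to 23.9 and 26.0 FPKM in siNC, 27.1 and 25.4 in siOGT1, and 29.1 and 29.6 in siOGT2. Of the 8 granulosa markers tested INHBB (0.57, adjusted p = 0.000186) and STAR (0.32, adjusted p = 0.0219) rose and KITLG fell (-0.25, adjusted p = 0.00133) with siOGT2, and INHBB, STAR and NR5A1 rose with siOGT1. The mitochondrial genome gave at most 2.01% of reads in siNC, 2.08% and 2.09% in siOGT1, and 2.31% and 2.35% in siOGT2. INHBB, STAR, KITLG, KRT7 and the mitochondrial share moved with the groups, as several clock genes below do. NR5A1 passed only with siOGT1 (adjusted p = 0.0494), and FOXL2, AMH, GATA4, INHBA and TEK passed with neither siRNA. The part of the markers and of that share in the differences was not tested.

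The PER and NR1D mRNAs were lower after transfection of siOGT2, and PER1 and NR1D1 after siOGT1 too, and CLOCK and BMAL1 did not pass the test with either siRNA. PER1 was at 51.9% of its siNC level with siOGT2 and 83.1% with siOGT1, and NR1D1 at 61.3% and 85.1%. The tests are limma's on log2(FPKM + 1), with p-values adjusted over all 10547 genes whose mean FPKM was at least 1, and a gene is said to rise or fall where its adjusted p is under 0.05. Of the 10 clock genes 9 reached that level, and DBP did not. With siOGT1, 2 of the 9 fell and none rose, against a background of 8.1% of all tested genes lower and 9.51% higher. With siOGT2, 6 of the 9 fell and none rose, against 13.4% lower and 22.1% higher. In the mean of both siRNAs against siNC the count was again 6 lower and none higher, against 11.8% and 19.4%. Without siNC replicate 2 the count was 1 with siOGT1 and 2 in the mean, and without siOGT1 replicate 1 it was 1 with siOGT1. Between the siRNAs, 5 of the 9 were higher with siOGT1 than with siOGT2 and none was lower, against 8.35% and 8.24%. The log2 fold change of OGT itself was -0.74 with siOGT1 and -0.63 with siOGT2. Directly compared, OGT differed by -0.11 (adjusted p = 0.123), and by -0.12 from recovered reads (adjusted p = 0.0342). Whether the clock gene changes come from OGT or from other effects of each siRNA was not tested. The median log2 fold change of the 9 was -0.04 with siOGT1 and -0.24 with siOGT2, where that of all tested genes was 0.03 and 0.05. Both siRNAs were compared with the same 2 siNC libraries. PER1 and NR1D1 passed with both of them, as did 539 lower and 765 higher genes among all tested.

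**Figure D1:**
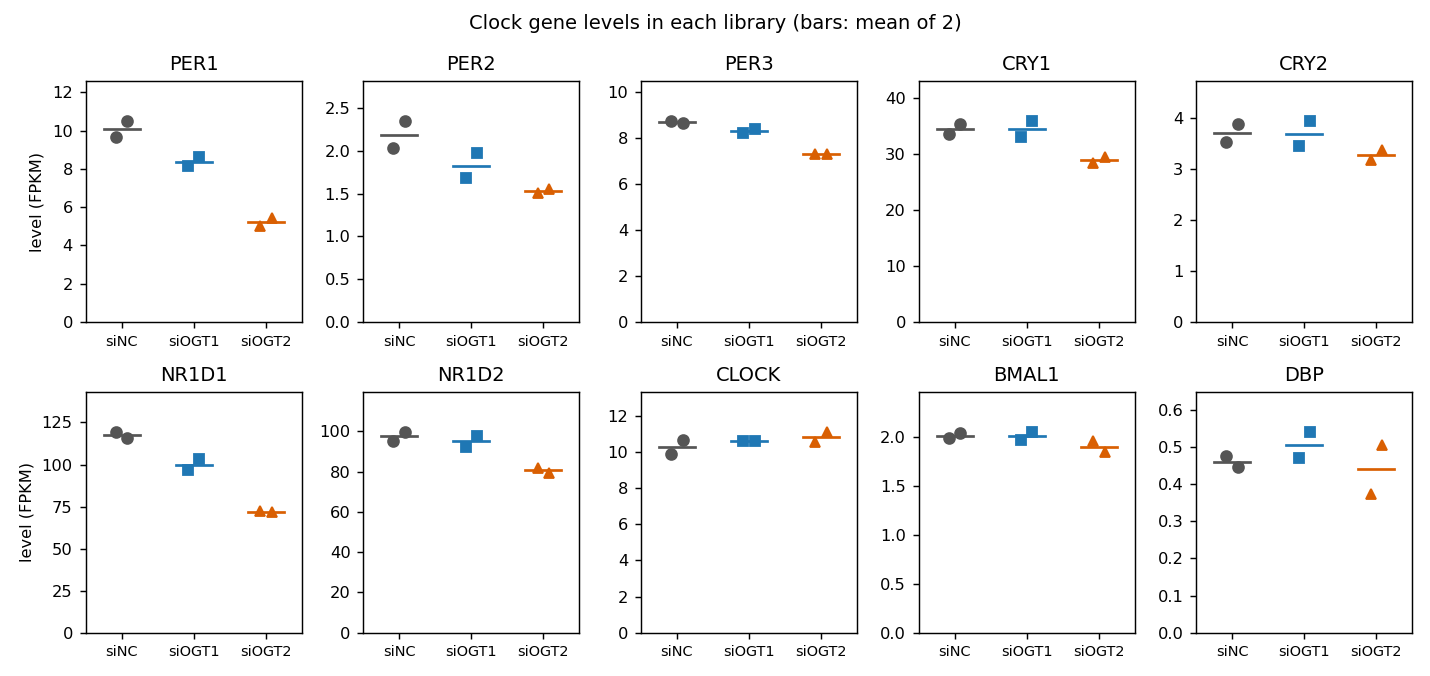
Level of each of the 10 clock genes in FPKM, 1 panel per gene with a linear axis from 0, with 1 point per library and a line at the mean of the 2 libraries of each group. PER1 and NR1D1 step down from siNC to siOGT1 to siOGT2 with no overlap, while the groups of CLOCK and DBP overlap.

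With siNC the clock genes spanned a wide range of levels. NR1D1 (mean 118 FPKM) and NR1D2 (97.4) were the most abundant, 175th and 225th of all tested genes, and their siNC ranges did not overlap. CRY1 followed at 34.4 FPKM, the 1098th. CLOCK (10.3) and PER1 (10.1) overlapped and could not be ordered beyond their spread, and PER3 stood below them at 8.68. CRY2 was at 3.71, PER2 (2.19) and BMAL1 (2.02) overlapped each other, and DBP was lowest. The order therefore put the nuclear receptor repressors of the loop above its repressors of the PER and CRY kind, and BMAL1 near the bottom.

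The loop is known to act through short DNA elements near the starts of its genes. To show where such letters lie, 1 window per start was searched, from 250 bases before the RefSeq start to 50 after it. Windows were 300 bases long (GRCh38.p14), 15 in all, with at least 1 for each of the 10 genes. The letters searched were CACGTG (the E-box, its own reverse complement), CACGTT (an E-box variant), TTANGTAA (the D-box), TGACGTCA (the cAMP response element, also its own reverse complement) and AGGTCA (the core of the element bound by REV-ERB and ROR receptors). Both strands were read, and no 2 of these letter strings overlapped in the stretches printed. CACGTG was in 2 of the 15 windows, those of PER1 and of the second NR1D2 start, and in 7.26% of all 35116 windows. CACGTT was in 5 of 15, of PER2, CRY1, CRY2, NR1D1 and CLOCK, and in 5.34% of all. TTANGTAA was in 3 of 15, of PER2, PER3 and NR1D2, and in 2.18% of all. AGGTCA was in 4 of 15, of PER1, BMAL1 and both CRY2 starts, and in 13.8% of all. TGACGTCA was in none of the 15 and in 1.85% of all. A match only says that the letters are there. The stretches below hold matches of 5 genes that fell with siOGT2 and of CLOCK, which did not pass. Matches are in capitals and the strand is that of the gene.
PER1, chr17:8152455-8152654, minus strand: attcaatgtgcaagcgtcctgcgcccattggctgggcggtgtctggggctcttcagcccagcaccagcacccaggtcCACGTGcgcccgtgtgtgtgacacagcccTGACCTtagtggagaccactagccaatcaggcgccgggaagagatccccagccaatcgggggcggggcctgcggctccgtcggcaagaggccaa
NR1D1, chr17:40100722-40100787, minus strand: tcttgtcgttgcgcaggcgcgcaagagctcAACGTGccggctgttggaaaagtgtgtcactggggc
NR1D2, chr3:23945897-23946051, plus strand: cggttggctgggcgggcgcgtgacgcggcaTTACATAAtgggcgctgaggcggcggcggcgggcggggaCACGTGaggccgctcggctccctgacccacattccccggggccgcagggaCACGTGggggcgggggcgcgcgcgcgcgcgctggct
PER2, chr2:238288772-238288837, minus strand: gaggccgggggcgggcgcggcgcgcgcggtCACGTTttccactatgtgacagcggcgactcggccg
PER3, chr1:7784084-7784151, plus strand: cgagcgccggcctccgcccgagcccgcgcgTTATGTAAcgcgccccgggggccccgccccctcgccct
CLOCK, chr4:55546084-55546149, minus strand: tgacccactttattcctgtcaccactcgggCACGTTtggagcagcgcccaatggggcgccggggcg
By GENCODE the stretches of PER1, PER2, NR1D2 and CLOCK lie in introns of longer transcripts of the same gene (for NR1D2 also of NKIRAS1), that of PER3 before the gene, and that of NR1D1 before the gene but for 4 exonic bases. In PER1 the capitals are the E-box, 173 bases before the start, and the reverse complement of the receptor core, 144 before. NR1D1 has the variant on the opposite strand at 168 bases. NR1D2 has a D-box on the opposite strand at 194 bases and E-boxes at 155 and 105. PER2 has the variant at 197 bases, PER3 a D-box at 177 and CLOCK the variant at 187. The same E-box variant thus lies before NR1D1, PER2 and CRY1, which fell with siOGT2, and before CRY2 and CLOCK, which did not pass.

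**Figure D2:**
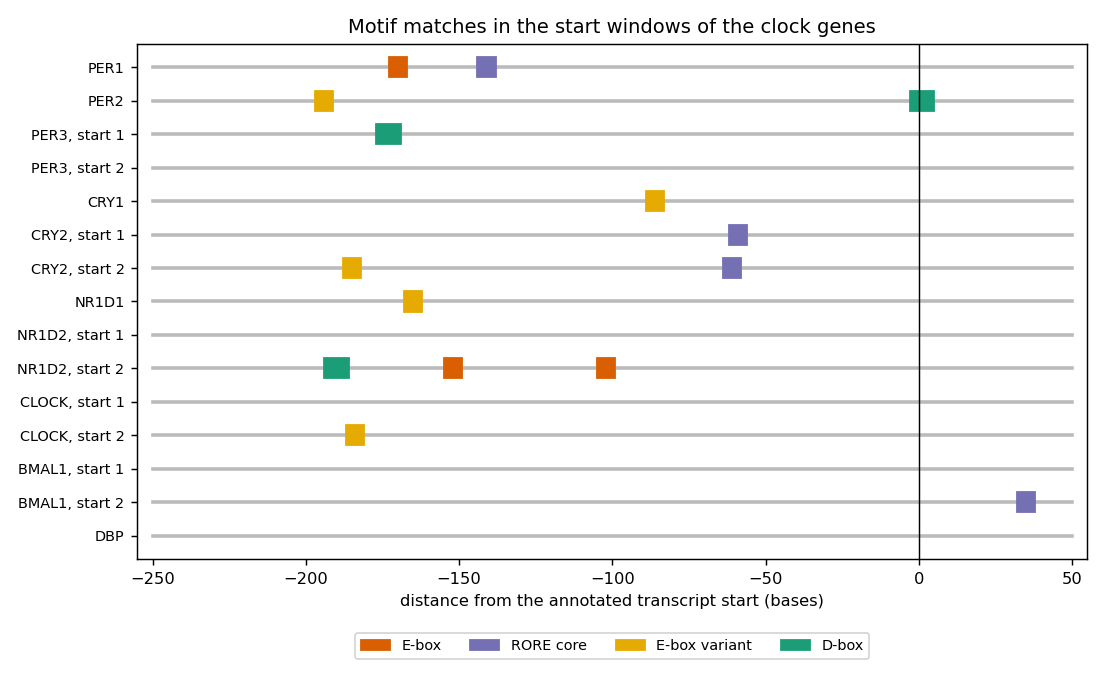
Positions of the motifs along each 300-base window, in bases from the RefSeq start (the line at 0), with 1 row per start and a coloured block for each match. The E-box appears in PER1 and, at 2 positions, in NR1D2, and rows with no block hold none of the 5 motifs.

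The 3 PER genes encode the repressors that respond fastest to outside signals, PER1 and PER2 above all. PER1 (ENSG00000179094, GRCh38 chromosome 17, 8140472 to 8156506, minus strand) stood at 9.67 and 10.5 FPKM in siNC, 8.15 and 8.62 in siOGT1, and 5.04 and 5.42 in siOGT2. The 3 groups did not overlap, and siOGT2 gave the lowest values. Its log2 fold change was -0.24 with siOGT1 (95% confidence interval -0.36 to -0.12, SE 0.0551, adjusted p = 0.0169) and -0.83 with siOGT2 (-0.95 to -0.71, adjusted p = 6.5e-06). Directly compared, PER1 was higher with siOGT1 than with siOGT2 by 0.59 (0.47 to 0.71, adjusted p = 0.000133), 0.39 with a pseudocount of 5. From the lowest log2 fold change with siOGT2, PER1 was 105th of all tested genes. The siOGT1 call ended when no low genes were filtered out (adjusted p = 0.068), without siNC replicate 2 (-0.19, adjusted p = 0.122) and without siOGT1 replicate 1 (-0.20, adjusted p = 0.0896). The siOGT2 call held in all 17 alternatives. PER1 had 1365 and 1477 reads with siNC and 640 and 636 with siOGT2, so counting error is small beside that change.

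PER2 (ENSG00000132326, chromosome 2, 238244038 to 238290102, minus strand) had 2.03 and 2.34 FPKM in siNC, 1.68 and 1.98 in siOGT1, and 1.51 and 1.55 in siOGT2. The siOGT1 libraries were both below the siNC libraries but near them, and the siOGT2 libraries were lower still. PER2 fell with siOGT2 (log2 fold change -0.33, interval -0.51 to -0.15, adjusted p = 0.0106) and did not pass with siOGT1 (-0.17, interval -0.35 to 0.00, adjusted p = 0.162). The difference between the siRNAs, 0.16 (-0.02 to 0.33), did not pass either (adjusted p = 0.21), so PER2 is not shown to respond differently to them. At this low level the scale matters: the siOGT2 value was -0.14 with a pseudocount of 5 and -0.51 from recovered reads. The siOGT2 call ended without siNC replicate 2 (adjusted p = 0.0832) and without siOGT2 replicate 1 (adjusted p = 0.0518).

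PER3 (ENSG00000049246, chromosome 1, 7784320 to 7845177, plus strand) had 8.71 and 8.66 FPKM in siNC, 8.19 and 8.38 in siOGT1, and 7.27 and 7.30 in siOGT2. Its groups did not overlap and its libraries lay close together. PER3 fell with siOGT2 (log2 fold change -0.23, interval -0.32 to -0.13, adjusted p = 0.00341), to 83.9% of siNC, in all 17 alternatives. With siOGT1 it was at 95.4% of siNC and did not pass (-0.06, interval -0.16 to 0.03, adjusted p = 0.356). It was higher with siOGT1 than with siOGT2 by 0.16 (adjusted p = 0.0263), a call that ended on leaving out siOGT1 replicate 1 (adjusted p = 0.069) or 2 (0.12), or siOGT2 replicate 1 (0.0979) or 2 (0.102). Among the PER genes the change with siOGT2 was thus largest for PER1, and the make-up of the family's mRNA moved with it. PER1 was 47.4% and 48.8% of the summed PER FPKM in siNC, 45.2% and 45.4% in siOGT1, and 36.5% and 38.0% in siOGT2. PER3 went the other way as a share, from 42.7% and 40.3% to 45.5% and 44.2%, and to 52.6% and 51.1%. PER1 was thus the most abundant PER mRNA in both siNC libraries and PER3 in both siOGT2 libraries, with the pair near equal in siOGT1. The share of PER2 moved least, between 9.31% and 10.9%. The sum itself was 20.4 and 21.5 FPKM with siNC and 13.8 and 14.3 with siOGT2.

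**Figure D3:**
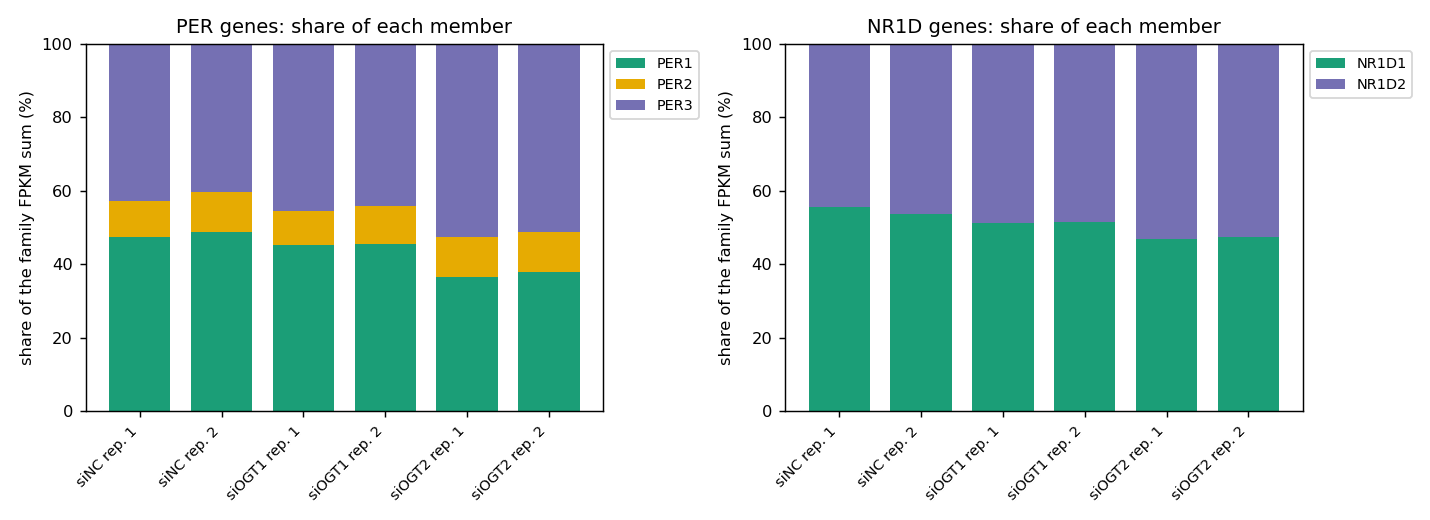
Share of each gene in the summed FPKM of the PER genes (left) and of the NR1D genes (right), in percent, as stacked bars for each of the 6 libraries. The PER1 part is smallest in siOGT2 (36.5% and 38.0%), where PER3 is over 51%, and NR1D1 is under 48% of its sum in siOGT2 alone.

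The CRY genes encode the stronger repressors of CLOCK and BMAL1, CRY1 the late and long-lasting one. CRY1 (ENSG00000008405, chromosome 12, 106991364 to 107093829, minus strand) had 33.5 and 35.3 FPKM in siNC, 33.1 and 35.8 in siOGT1, and 28.4 and 29.4 in siOGT2. The siNC and siOGT1 libraries overlapped, and both siOGT2 libraries lay below them. CRY1 fell with siOGT2 (log2 fold change -0.24, interval -0.34 to -0.14, adjusted p = 0.00321) in all 17 alternatives. With siOGT1 its value was 0.00 (interval -0.10 to 0.10, adjusted p = 0.972), and the difference between the siRNAs passed (0.25, interval 0.15 to 0.35, adjusted p = 0.00579). Its fall in the mean of both siRNAs (-0.12, adjusted p = 0.0418) ended without any 1 of 5 libraries, with adjusted p from 0.0609 to 0.291, and of the 6 left out in turn held only without siOGT1 replicate 2. It also ended with no filter (adjusted p = 0.113) and without an intensity trend (0.0917). CRY2 (ENSG00000121671, chromosome 11, 45847118 to 45883248, plus strand) had 3.53 and 3.90, 3.46 and 3.95, and 3.18 and 3.39 FPKM in the same order. Its siOGT2 libraries were the lowest of the 6, but the change did not pass (-0.14, interval -0.29 to 0.02, adjusted p = 0.151), nor did that with siOGT1 (-0.00, interval -0.16 to 0.15, adjusted p = 0.977). The interval with siOGT2 still holds the change measured for CRY1. CRY1 gave between 89.7% and 90.5% of the CRY sum in every library.

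NR1D1 and NR1D2 encode the heme-binding repressors of BMAL1. NR1D1 (ENSG00000126368, chromosome 17, 40092787 to 40100725, minus strand) had 119 and 116 FPKM in siNC, 96.8 and 103 in siOGT1, and 72.4 and 71.6 in siOGT2. The groups did not overlap, and siOGT2 libraries stood lowest. NR1D1 fell by 0.23 on the log2 scale with siOGT1 (interval -0.31 to -0.15, SE 0.0364, adjusted p = 0.00241) and by 0.70 with siOGT2 (-0.78 to -0.62, adjusted p = 1.57e-06). It was higher with siOGT1 than with siOGT2 by 0.47 (0.39 to 0.55, adjusted p = 5.06e-05). These calls and that in the mean of both siRNAs (-0.47, adjusted p = 8.22e-06) held in all alternatives run. NR1D1 was read deeply, with 3154 to 6328 reads a library.

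NR1D2 (ENSG00000174738, chromosome 3, 23945260 to 23980618, plus strand) had 95.2 and 99.7 FPKM in siNC, 92.4 and 97.6 in siOGT1, and 81.9 and 79.3 in siOGT2. As with CRY1, the siNC and siOGT1 libraries overlapped and the siOGT2 libraries lay apart. NR1D2 fell with siOGT2 (log2 fold change -0.27, interval -0.35 to -0.19, adjusted p = 0.000748) in all 17 alternatives. It did not pass with siOGT1 (-0.04, interval -0.12 to 0.05, adjusted p = 0.557). The siRNAs differed (0.23, interval 0.15 to 0.32, adjusted p = 0.00299). Averaged over the siRNAs it fell by 0.15 (adjusted p = 0.00751), but not without siNC replicate 2 (adjusted p = 0.0918). NR1D1 was above NR1D2 in all siNC and siOGT1 libraries and below it in both siOGT2 libraries, going from 55.6% and 53.7% of their sum to 51.1% and 51.4% and then to 46.9% and 47.4%. The sum of both was 215 FPKM in each siNC library, and 154 and 151 with siOGT2.

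Neither activator passed the test with either siRNA. CLOCK (ENSG00000134852, chromosome 4, 55427903 to 55547138, minus strand) had 9.89 and 10.7 FPKM with siNC, 10.6 in both siOGT1 libraries, and 10.6 and 11.1 with siOGT2. The groups overlapped, and the log2 fold change was 0.04 with siOGT1 (interval -0.07 to 0.15, adjusted p = 0.603) and 0.07 with siOGT2 (-0.04 to 0.18, adjusted p = 0.276). BMAL1 (ENSG00000133794, chromosome 11, 13276652 to 13387266, plus strand) had 1.99 and 2.04, 1.97 and 2.05, and 1.96 and 1.85 FPKM. Its siOGT2 libraries were just below the rest, with log2 fold changes of -0.00 (interval -0.14 to 0.14, adjusted p = 0.992) and -0.06 (-0.19 to 0.08, adjusted p = 0.52). On this scale both siOGT2 intervals leave out the log2 values of the PER genes, CRY1, NR1D1 and NR1D2, though not a smaller change. The added 1 shrinks the value of a gene as low as BMAL1. For BMAL1 a fall to the percent of siNC seen in PER3, CRY1 or NR1D2 is therefore not excluded. BMAL1 rested on 215 to 305 reads a library. DBP (ENSG00000105516, chromosome 19, 48630030 to 48637438, minus strand), the output factor, had 0.474 and 0.445 FPKM in siNC, 0.469 and 0.540 in siOGT1, and 0.374 and 0.506 in siOGT2. All groups overlapped, and DBP had 44 to 75 reads a library. Fitted with no filter on low genes, its log2 fold change was 0.04 with siOGT1 (adjusted p = 0.723) and -0.02 with siOGT2 (adjusted p = 0.854).

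**Figure D4:**
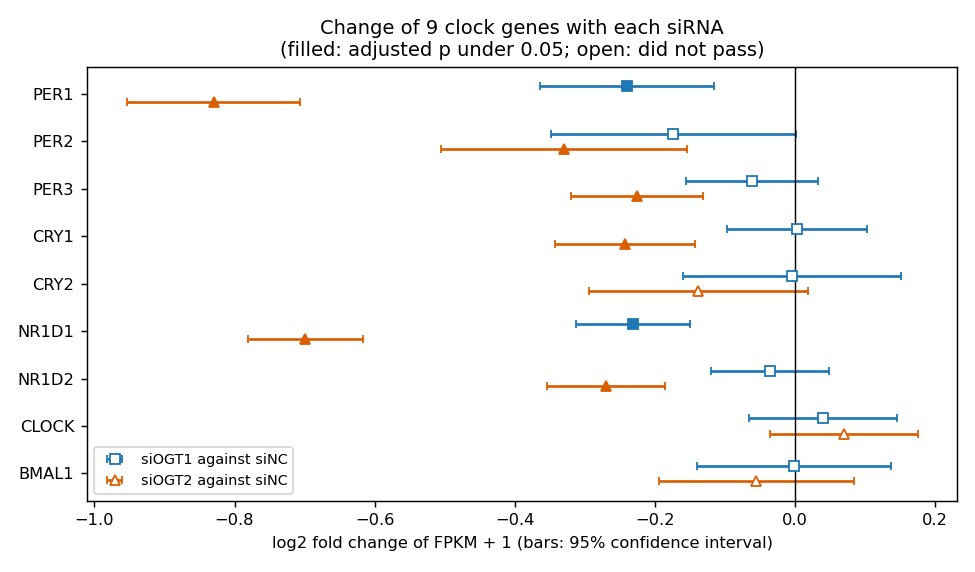
Log2 fold change of the 9 tested clock genes on the log2(FPKM + 1) scale for siOGT1 (squares) and siOGT2 (triangles) against siNC, with 95% confidence intervals from limma and filled symbols where the adjusted p is under 0.05. With siOGT2 the PER genes, CRY1, NR1D1 and NR1D2 lie left of 0, PER1 farthest at -0.83, and the intervals of CRY2, CLOCK and BMAL1 span 0.

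The clock genes are not alone at their loci, and no source used here gives the strandedness of the libraries, so reads from overlapping genes on opposite strands cannot be told apart. THRA, the thyroid hormone receptor α gene, overlaps the end of NR1D1 and had 3.92 and 3.78 FPKM in siNC, 4.68 and 4.63 in siOGT1, and 4.95 and 4.94 in siOGT2. THRA rose where NR1D1 fell, by 0.29 with siOGT2 (adjusted p = 0.00205) and by 0.22 with siOGT1 (adjusted p = 0.0147). The siOGT1 call was lost without siNC replicate 2 (adjusted p = 0.0893) and without siOGT1 replicate 1 (0.067) or 2 (0.0576). TMEM165, a Golgi membrane protein gene, overlaps CLOCK and fell with siOGT1 (-0.28, adjusted p = 0.00103) but did not pass with siOGT2 (-0.08, adjusted p = 0.156), except under the trimmed mean scaling (-0.12, adjusted p = 0.0453). NKIRAS1, which overlaps NR1D2, and SPHK2, which overlaps DBP, passed with neither siRNA (adjusted p from 0.153 to 0.883).

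The genes whose pattern lay nearest to the members with the largest change were found by the root mean square distance over the 6 libraries, on log2(FPKM + 1) after subtracting the siNC mean. Nearest to NR1D1 were ALOXE3 (0.0229), an epidermal lipoxygenase gene, CSRNP1 (0.0353), a nuclear protein gene, and PPARGC1A (0.0445), which encodes the coactivator PGC-1α. Nearest to PER1 were SLC25A25 (0.0516), a mitochondrial carrier gene, the histone H4 gene H4C15 (0.0732) and ATF3 (0.0784), a stress-induced transcription factor gene. H4C15 has near-identical copies, so its reads are uncertain. ATF3 had 65.3 and 66.3 FPKM in siNC, 50.2 and 54.6 in siOGT1, and 35.5 and 34.3 in siOGT2. PPARGC1A had log2 fold changes of -0.17 with siOGT1 and -0.71 with siOGT2. In both genes siOGT1 lay between siNC and siOGT2, as in PER1 and NR1D1, which follows from their choice by nearness over these libraries.

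Beyond the 10 genes, 45 further genes of the clock were listed by role, also with earlier results of these data known. Of them, 44 were in the table and 38 tested. Of these, 4 rose and 5 fell with siOGT1, 8 rose and 8 fell with siOGT2, and 10 rose and 7 fell in the mean of both siRNAs. Over all tested genes 9.51% rose and 8.1% fell with siOGT1, 22.1% and 13.4% with siOGT2, and 19.4% and 11.8% in the mean, so the share of rises among the listed genes was near the background with each siRNA. With a trimmed mean of log ratios as the scaling these counts were 2 and 5, 4 and 11, and 3 and 9, so the balance of rises and falls rests on the scaling. Over all tested genes that scaling gave 537 rises and 1021 falls with siOGT1, 1438 and 1833 with siOGT2, and 1133 and 1637 in the mean. The siOGT1 count of 9 was 3 without siNC replicate 1, 2 without siNC replicate 2 and 5 without siOGT1 replicate 2, and the count of 17 in the mean was 9 without either siNC library. In each of these fits the count over all tested genes was lower too. Between the siRNAs 7 were higher with siOGT1 and 3 with siOGT2, against 8.35% and 8.24% of all tested genes. Medians lay close to those of all tested genes, at 0.04 with siOGT1 and 0.03 with siOGT2.

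Of the further activators and partners of the loop only BMAL2 was tested. RORA, which activates BMAL1 through the element that NR1D1 and NR1D2 also bind, was low, at 0.790 and 0.935 FPKM with siNC and 0.664 and 0.645 with siOGT2. NPAS2, a relative of CLOCK, reached at most 0.0238 FPKM. BMAL2, a relative of BMAL1, was at 6.56 to 7.89 FPKM, above BMAL1 at 1.85 to 2.05 in every library. BMAL2 fell with siOGT1 (log2 fold change -0.20, adjusted p = 0.0129) and did not pass with siOGT2 (-0.00, adjusted p = 0.94). Single-gene alternatives were not run for BMAL2. It was named after its values were seen.

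Among 5 further repressors, 3 fell and none rose with siOGT2, where 13.4% of all tested genes fell. BHLHE41 (DEC2), which competes for E-boxes, had 55.3 and 57.4 FPKM in siNC, 50.9 and 52.9 in siOGT1, and 38.0 and 38.4 in siOGT2. It fell by 0.55 on the log2 scale with siOGT2 (adjusted p = 4.02e-06) and by 0.12 with siOGT1 (adjusted p = 0.0412). The siOGT1 call ended on leaving out siNC replicate 1 (adjusted p = 0.0774) or 2 (0.233), siOGT1 replicate 1 (0.175) or siOGT2 replicate 1 or 2 (0.0617 each). It also ended with no filter (0.0867), without an intensity trend (0.111) and with only the 2 groups fitted (0.0615). CIART (CHRONO), which inhibits the CLOCK and BMAL1 pair, had 10.1 and 9.96 FPKM in siNC, 7.82 and 9.49 in siOGT1, and 5.71 and 6.01 in siOGT2. CIART fell with siOGT2 (-0.68, adjusted p = 0.000153), a change close in size to that of NR1D1. With siOGT1 it did not pass (-0.20, adjusted p = 0.0966), except without siOGT1 replicate 2 (-0.32, adjusted p = 0.00782), and it was -0.07 without siOGT1 replicate 1. NFIL3, which binds D-boxes as a repressor, fell with siOGT2 (-0.22, adjusted p = 0.00807), though not without siNC replicate 1 (-0.16, adjusted p = 0.0665). BHLHE40 (DEC1), the close relative of BHLHE41, rose with siOGT1 (0.18, adjusted p = 0.00467), though not without siNC replicate 2 (adjusted p = 0.0504), and did not pass with siOGT2 (0.05, adjusted p = 0.247). With siOGT1 the DEC genes thus moved in opposite directions, and each kept its sign in every alternative run.

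Of 8 tested output genes, 1 rose and 4 fell with siOGT2, where 22.1% of all tested genes rose and 13.4% fell. NOCT, a rhythmic phosphatase gene, had 16.8 and 18.2 FPKM in siNC, 12.8 and 13.2 in siOGT1, and 9.73 and 11.1 in siOGT2. NOCT fell with siOGT1 (log2 fold change -0.40, adjusted p = 0.00171) and with siOGT2 (-0.70, adjusted p = 3.8e-05), in all alternatives. NAMPT, the rate-limiting enzyme of NAD salvage, fell by 0.25 with siOGT2 (adjusted p = 0.000883) and by 0.15 with siOGT1 (adjusted p = 0.018). Leaving out any 1 siNC or siOGT1 library ended its siOGT1 call (adjusted p from 0.0568 to 0.113). KLF10, a zinc finger factor gene induced by growth factors, fell with siOGT2 (-0.34, adjusted p = 5.48e-05). PPARA, a lipid-sensing nuclear receptor gene, rose with siOGT2 (0.27, adjusted p = 0.00577), and did not pass with siOGT1 (0.12, adjusted p = 0.174). TSC22D3, a glucocorticoid-induced gene, rose with siOGT1 (0.15, adjusted p = 0.031), but not without any 1 siNC or siOGT1 library (adjusted p from 0.0687 to 0.14). That call also ended under the trimmed mean scaling (adjusted p = 0.0863) and with no filter (0.0535), and with siOGT2 TSC22D3 did not pass (0.11, adjusted p = 0.0651). Of the D-box factors related to DBP, TEF passed with neither siRNA (0.12, adjusted p = 0.105, and -0.10, adjusted p = 0.12). HLF was below the minimum, at 0.520 and 0.690 FPKM in siNC, 0.473 and 0.544 in siOGT1, and 0.261 and 0.352 in siOGT2. Fitted with no filter, HLF fell with siOGT2 (-0.30, adjusted p = 0.0364) and did not pass with siOGT1 (-0.09, adjusted p = 0.518). HLF rested on few reads, 71 and 94 in siNC, 59 and 79 in siOGT1, and 32 and 40 in siOGT2. It was named after its values were seen.

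Of 24 tested kinases, ligases and cofactors that act on clock proteins, 7 rose and 1 fell with siOGT2 (22.1% and 13.4% of all tested genes), and 2 rose and 1 fell with siOGT1 (9.51% and 8.1%). The gene that fell with siOGT2 was SIRT1, an NAD-dependent deacetylase of BMAL1 and PER2, at 39.2 and 39.7 FPKM in siNC, 36.9 and 37.4 in siOGT1, and 32.7 and 30.7 in siOGT2 (log2 fold change -0.31, adjusted p = 0.000301). PRKAA2, an AMPK subunit gene, rose with siOGT2 (0.34, adjusted p = 0.00092). CRTC1, a CREB coactivator gene, had 1.51 FPKM in both siNC libraries, 2.18 and 2.13 with siOGT1, and 2.08 and 2.28 with siOGT2. It rose by 0.33 (adjusted p = 0.00705) and 0.34 (adjusted p = 0.0034), 0.14 in both with a pseudocount of 5. CUL4A, a ubiquitin ligase scaffold gene, rose by 0.13 with siOGT1 (adjusted p = 0.0158) and 0.09 with siOGT2 (adjusted p = 0.0423). Both CUL4A calls ended under the trimmed mean scaling (0.10 and 0.05, adjusted p = 0.0568 and 0.271), without an intensity trend (0.0572 and 0.1) and without either siNC library (adjusted p from 0.0776 to 0.157). The siOGT1 call also ended without siOGT1 replicate 2 (adjusted p = 0.0704). The siOGT2 call of CUL4A also ended without siOGT2 replicate 1 (adjusted p = 0.117) or 2 (0.136), with equal FPKM sums (0.119) and with quantile normalization (0.0628). NCOR1, a corepressor that works with the REV-ERB receptors, rose with siOGT2 (0.16, adjusted p = 0.0106), but not without siNC replicate 1 (adjusted p = 0.079) or siOGT2 replicate 1 (0.0557). Of the casein kinase genes, whose products set the lifetime of PER proteins, CSNK1D and CSNK1E passed with neither siRNA (adjusted p from 0.419 to 0.804). CSNK1A1 rose with siOGT2 (0.14, adjusted p = 0.0228) and did not pass with siOGT1 (0.07, adjusted p = 0.245). These 3 were named after their values were seen, and single-gene alternatives were not run for them.

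**Figure D5:**
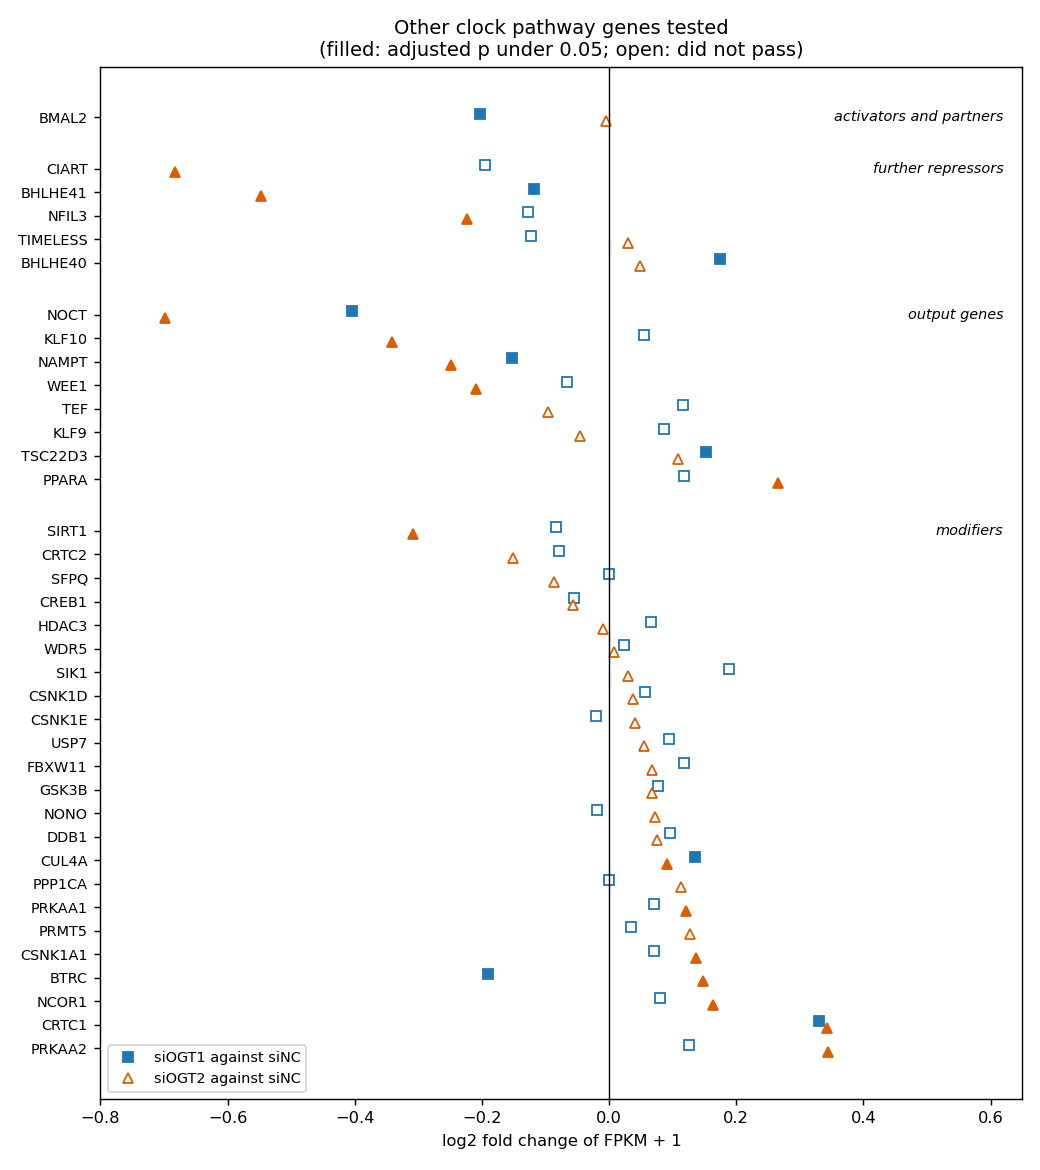
Log2 fold change on the log2(FPKM + 1) scale of the tested further clock genes reported here, grouped by role, for siOGT1 (squares) and siOGT2 (triangles) against siNC, filled where the adjusted p is under 0.05. NOCT, CIART and BHLHE41 lie farthest left with siOGT2, and CRTC1 lies right of 0 and filled with both siRNAs.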

How the data were processed

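RNA of 6 KGN libraries was sequenced. Adapter trimming used cutadapt 1.15 and alignment used HISAT2 on GRCh38, per the submitters' processing notes. The sources used here give neither counter, annotation nor strandedness. The authors deposited FPKM values, 1 column per library. FPKM steps gave whole reads (tolerance 0.01 reads), used for depth and 1 alternative. A deeply read gene has less counting error.

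All 6 libraries entered 1 limma 3.58.1 fit (R 4.3.3) of log2(FPKM + 1), with an intensity trend, 3 residual degrees of freedom, two-sided tests and Benjamini-Hochberg adjustment over genes whose mean FPKM reached 1. The added 1 understates changes of low genes. Both siRNA contrasts share siNC. The script was tested on simulated data. Gene coordinates are GENCODE 29. Promoter windows are RefSeq, GRCh38.p14.

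Named were the members, OGT, genes overlapping a member, listed clock genes that passed in the mean contrast or with both siRNAs (at most 5 per role), and 3 nearest genes to each of the 2 most changed members. The members and lists were chosen with earlier results of these data known. Alternatives were pseudocount, filter, scaling, variance model, replicate block, groups fitted, voom on recovered reads and each library left out. Of the listed clock genes, 2 are not reported here individually.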

Additional observations from a re-analysis of the deposited data

Results flagged for a closer look

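The response to the siRNAs differed by a direct test, with the fold changes against siNC of opposite sign, for 1 clock gene and 3 further genes of the clock. CRY1 differed by 0.25 on the log2 scale between siOGT1 and siOGT2 (adjusted p = 0.00579), from 0.00 with siOGT1 and -0.24 with siOGT2. The sign of the siOGT1 value is not set, since it was -0.03 under the trimmed mean scaling. KLF10, a growth-factor-induced output gene, differed by 0.40 (adjusted p = 5.35e-05), from 0.06 and -0.34. The siOGT1 value of KLF10 did not pass (adjusted p = 0.255), except with quantile normalization (0.11, adjusted p = 0.0283). Its levels were 232 and 235 FPKM in siNC, 237 and 248 in siOGT1, and 185 and 183 in siOGT2. BTRC, a ubiquitin ligase subunit that recognises phosphorylated PER proteins, differed by -0.34 (adjusted p = 0.00158). BTRC fell with siOGT1 (-0.19, adjusted p = 0.0249) and rose with siOGT2 (0.15, adjusted p = 0.0404), with 6.51 and 6.67 FPKM under siNC, 5.71 and 5.59 under siOGT1, and 7.18 and 7.64 under siOGT2. TEF, a D-box factor related to DBP, differed by 0.21 (adjusted p = 0.0115), from 0.12 and -0.10, neither of which passed alone. Single-gene alternatives were not run for BTRC and TEF, so how far their calls depend on the processing is not known.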

How the results depend on the processing

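NR1D1 kept its direction and its call in all 4 contrasts under the alternatives run, as did PER1, PER3, CRY1 and NR1D2 with siOGT2. With no filter on low genes, 1 clock gene passed with siOGT1, and over all genes 1138 (in place of 1857) passed with siOGT1 and 1017 (in place of 1750) between the siRNAs. Leaving out 1 library at a time gave 1 to 2 clock genes with siOGT1, 5 to 6 with siOGT2, 2 to 6 in the mean of both siRNAs (2 without siNC replicate 2) and 4 to 5 between the siRNAs. For the further clock genes these ranges were 2 to 8, 11 to 15, 9 to 15 and 5 to 10, lowest without siNC replicate 2 for siOGT1, without siNC replicate 1 or 2 for the mean, and without siOGT2 replicate 1 between the siRNAs. For all genes they were 945 to 1737, 2222 to 3749, 1654 to 2971 and 816 to 1533. Under the trimmed mean scaling the rises and falls over all genes were 537 and 1021 with siOGT1 (1003 and 854 as reported), 1438 and 1833 with siOGT2 (2329 and 1411) and 1133 and 1637 in the mean (2041 and 1243). The scaling alternatives moved the median of all genes by under 0.1.

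Signs turned only for values that did not pass. With siOGT1, CRY1 was -0.0034 with equal FPKM sums, -0.0165 with quantile normalization and -0.0324 with the trimmed mean, CRY2 0.0015 and BMAL1 2e-04 from recovered reads, and NR1D2 0.0055 with quantile normalization. NKIRAS1 was -0.0023 with siOGT1 under the trimmed mean, and -0.0038, -0.0167 and -0.0264 in the mean contrast under the same 3 scalings. CRTC1 was 0.0074 between the siRNAs with quantile normalization. Leaving out 1 library turned signs within these ranges: with siOGT1, CRY1 -0.0526 to 0.0585, CRY2 -0.0783 to 0.0707, NR1D2 -0.0751 to 0.0031, CLOCK -0.0084 to 0.0896, BMAL1 -0.0203 to 0.0178 and NKIRAS1 -0.0146 to 0.0724. NKIRAS1 ran from -0.0296 to 0.0078 with siOGT2, -0.0128 to 0.0308 in the mean and -0.0038 to 0.0833 between the siRNAs, CLOCK from -0.0615 to 0.0032 and CRTC1 from -0.0562 to 0.0325 between the siRNAs. The cause was not tested.

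With the replicate number as a block, 2, 6, 6 and 5 clock genes passed in the 4 contrasts, as without it, and 9, 15, 15 and 10 further clock genes, against 9, 16, 17 and 10. CUL4A with siOGT2 had an adjusted p of 0.058 with the block. Over all genes the block gave 1773, 3636, 3160 and 1674. Over all tested genes, the differences between replicates 1 and 2 were hardly correlated between groups (-0.022, -0.026 and 0.049). PER1, PER2, CRY1, CRY2 and CLOCK were higher in replicate 2 in every group, and PER3, NR1D1, NR1D2 and BMAL1 were not. Beyond these correlations and the block, whether same-numbered libraries share more than a number was not tested. DBP rests on 44 to 75 reads a library.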

Other observations

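The genes within 50 kb of the 10 clock genes were looked at after the data had been seen, and 25 tested genes lay there. With siOGT2, 2 of them fell and 10 rose, where 13.4% and 22.1% of all tested genes did. Both that fell lie beside PER1 on chromosome 17. ALOXE3, which also had the pattern nearest to NR1D1, lies 21425 bases from PER1. It had 3.68 and 3.56 FPKM in siNC, 2.79 and 3.15 in siOGT1, and 1.80 and 1.76 in siOGT2 (log2 fold change -0.73, adjusted p = 4.36e-05). AURKB, a mitotic kinase gene, lies 48227 bases away and fell by 0.48 (adjusted p = 6.58e-05). VAMP2, only 2643 bases from PER1, did not pass (-0.08, adjusted p = 0.257). The genes that rose included THRA and BTBD10, which lies 735 bases from BMAL1 and rose by 0.17 with siOGT2 (adjusted p = 0.00415) and 0.21 with siOGT1 (adjusted p = 0.00219).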
